A study of Mus musculus with 721 samples.

Results

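The genes described here are the chromatin remodellers, deacetylases and demethylases on the mouse autosomes. Every row on chromosomes 1 to 19 with a matching symbol was taken. Such a symbol begins with Smarc or Kmt2, or is Chd, Hdac or Kdm followed by a family number. This rule was set with earlier results of these data known. Of 24483 gene rows 44 matched, namely 12 Smarc, 9 Chd, 10 Hdac and 13 Kdm rows. Hdac4 has 2 rows, so the rows stand for 43 genes. No row is named Kmt2: the lysine methyltransferases of that family carry their older Mll symbols in the table and were followed separately with other subunits of the same complexes.

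Single cells from wild type C57Bl/6Babr mouse embryos were sequenced at 4 stages, from the inner cell mass (ICM) of the E3.5 blastocyst through E4.5 and E5.5 to the early streak embryo at E6.5. The table holds 721 cells from 37 embryos, counting as 1 the 9 E3.5 cells that carry no embryo number. Embryos were told apart by title, and their number is higher than that given by the study. Some of the E6.5 cells are titled E6.75. No embryo carried a mutation or was treated. Immunosurgery had stripped the blastocysts of both early stages of trophectoderm, and extraembryonic ectoderm was cut from the E5.5 embryos. E3.5 cells were kept as 1 ICM group, which was not parted into lineages. Cells of the later stages were parted by clustering into epiblast, the founder of the embryo proper, and cells with a high endoderm marker score, which are called primitive endoderm (PrE) at E4.5 and clusters 3 and 5 at E6.5. At E4.5 every cell was placed in a class (76 PrE and 29 epiblast cells). The study left out of its later analyses a small group of E4.5 cells with markers of both lineages. Such cells were not set apart here, and their part in the results was not tested. Counts were then summed over at least 3 cells of a class within an embryo, and the embryo was the replicate. This gave 10 ICM sums, 5 epiblast and 5 PrE sums of E4.5, 8 epiblast sums of E5.5, 13 epiblast sums of E6.5 and 8 sums of E6.5 clusters 3 and 5.

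The ATP-dependent remodellers slide, eject or space nucleosomes: Smarca4 and Smarca2 are the alternative motors of the SWI/SNF (BAF) complexes, Smarca5 is the ISWI motor, and Chd4 is the motor of the NuRD complex, which also holds the deacetylases Hdac1 and Hdac2. Deacetylases take acetyl groups off histones and other proteins, and Kdm enzymes take methyl groups off histone lysines, each family with its own preferred residues. In the early embryo, SWI/SNF and NuRD are known for their part in maintaining pluripotency and in letting cells leave it, and subunits from the same family can replace each other within a complex.

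Chd9, Hdac2, Kdm5b and Smarcd1 were the 4 members called higher in the E4.5 epiblast than in the E3.5 ICM and also than in the PrE. These comparisons share the E4.5 epiblast sums, and the share of all genes called in both was not computed. The promoters of the 4 genes are shown because they recur in the results. The sequences are the 250 bases before the RefSeq start, from GRCm38.p6 on the plus strand, in lower case, with the GC box (GGGCGG on either strand) in capitals. They span chr8:90828585-90828834 for Chd9, which has 2 starts in the RefSeq table of which the first is shown, chr10:36974294-36974543 for Hdac2, chr1:134559928-134560177 for Kdm5b and chr15:99702037-99702286 for Smarcd1.
Chd9: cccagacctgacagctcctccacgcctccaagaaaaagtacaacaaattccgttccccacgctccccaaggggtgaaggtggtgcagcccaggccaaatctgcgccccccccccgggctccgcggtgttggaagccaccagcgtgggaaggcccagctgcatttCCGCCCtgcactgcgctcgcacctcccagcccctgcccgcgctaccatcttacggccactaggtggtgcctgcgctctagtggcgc
Hdac2: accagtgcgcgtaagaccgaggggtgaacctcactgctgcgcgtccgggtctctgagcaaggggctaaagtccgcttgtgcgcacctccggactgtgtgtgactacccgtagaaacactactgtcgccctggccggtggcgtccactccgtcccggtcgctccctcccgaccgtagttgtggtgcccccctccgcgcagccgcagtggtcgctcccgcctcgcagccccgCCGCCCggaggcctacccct
Kdm5b: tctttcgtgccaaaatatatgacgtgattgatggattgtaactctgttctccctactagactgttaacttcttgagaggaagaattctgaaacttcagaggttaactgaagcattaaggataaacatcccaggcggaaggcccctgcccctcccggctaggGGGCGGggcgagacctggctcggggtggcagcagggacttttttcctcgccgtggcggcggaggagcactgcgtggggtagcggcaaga
Smarcd1: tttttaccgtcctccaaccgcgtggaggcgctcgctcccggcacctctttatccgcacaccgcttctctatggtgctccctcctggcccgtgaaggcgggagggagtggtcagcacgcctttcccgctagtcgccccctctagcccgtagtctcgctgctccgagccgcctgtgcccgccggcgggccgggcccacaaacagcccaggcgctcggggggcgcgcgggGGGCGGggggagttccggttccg
Each of the 4 holds 1 GC box, which occurs on either strand in 33.03% of all 31396 autosomal promoter windows. None holds CCAAT (in 33.7% of all windows), the octamer ATGCAAAT (1.61%), the E-box CACGTG (6.02%) or TATAAA (12.4%). The windows contain 16 CpG in Chd9, 27 in Hdac2, 13 in Kdm5b and 29 in Smarcd1, against a median of 6 and quartiles of 2 and 16 over all windows. These matches describe the letters only. Of the 43 genes, 30 have a window in the table.

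The cells held 66896 to 3792936 counts each (median 692863), and the sums held 1476466 to 49484352 counts. Wells titled double (67 cells of the E5.5 embryos, 38 of E4.5, 14 of E6.5 and 9 of E3.5) were kept, and single wells alone were an alternative. The classes were named by scores of marker lists, and summed levels of the same lists are given here. They describe the classes and are no independent check of the names. The summed level of 20 endoderm genes was 13615 to 24039 CPM (counts of a gene per 1000000 counts of the sum) in the PrE sums against 1898 to 5834 in the E4.5 epiblast sums. At E6.5 it was 12736 to 38502 in the sums of clusters 3 and 5, against 734 to 6744 in the epiblast sums, and 14 epiblast markers ran the other way at both stages. Clusters 3 and 5 (21 cells each) are given by number, because the genes that led cluster 5 included Lhx1, from the streak list, and none of the endoderm list, although its endoderm and anterior visceral endoderm scores were high. Stage and plate largely coincide, since most stages share only some plate names, and 4 of the 13 E6.5 embryos have none. The sources used here do not say whether a plate name that recurs at another stage stands for the same plate. p-values measure the spread between these embryos, and fewer transcribing cells and less RNA per cell cannot be told apart in a sum.

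Levels differed widely between members. Per kilobase of the principal transcript, mean levels in the E4.5 epiblast were 126.1 CPM for Hdac2, 121.6 for Hdac1, 45.95 for the SWI/SNF core subunit Smarcc1, 36.9 for the H3K4 demethylase Kdm5b and 31.97 for Smarca5. Some paralog pairs changed order on the mean between groups, among them Smarcd1 and Smarcd2, and Kdm2a and Kdm2b. Other pairs kept their order in all 6 groups, by the length of the principal transcript and by that of the merged exons. In these, Smarca4 exceeded Smarca2, Smarcc1 exceeded Smarcc2, Chd4 exceeded Chd3, Kdm1a exceeded Kdm1b and Hdac1 exceeded Hdac3. Smarca4, for example, stood at 26.2 CPM per kilobase in the E4.5 epiblast, where Smarca2 stood at 0.603, and Chd4 stood at 23.4 where Chd3 stood at 0.476. At the other end, Kdm4d was at 0 in every sum of 5 groups and reached 1.78 CPM in 1 PrE sum, and Hdac9 was at 0 in every E3.5 and E4.5 sum and reached 10.8 CPM in 1 E6.5 epiblast sum. These 2 genes did not pass the filter on low counts and were not tested.

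**Figure D1:**
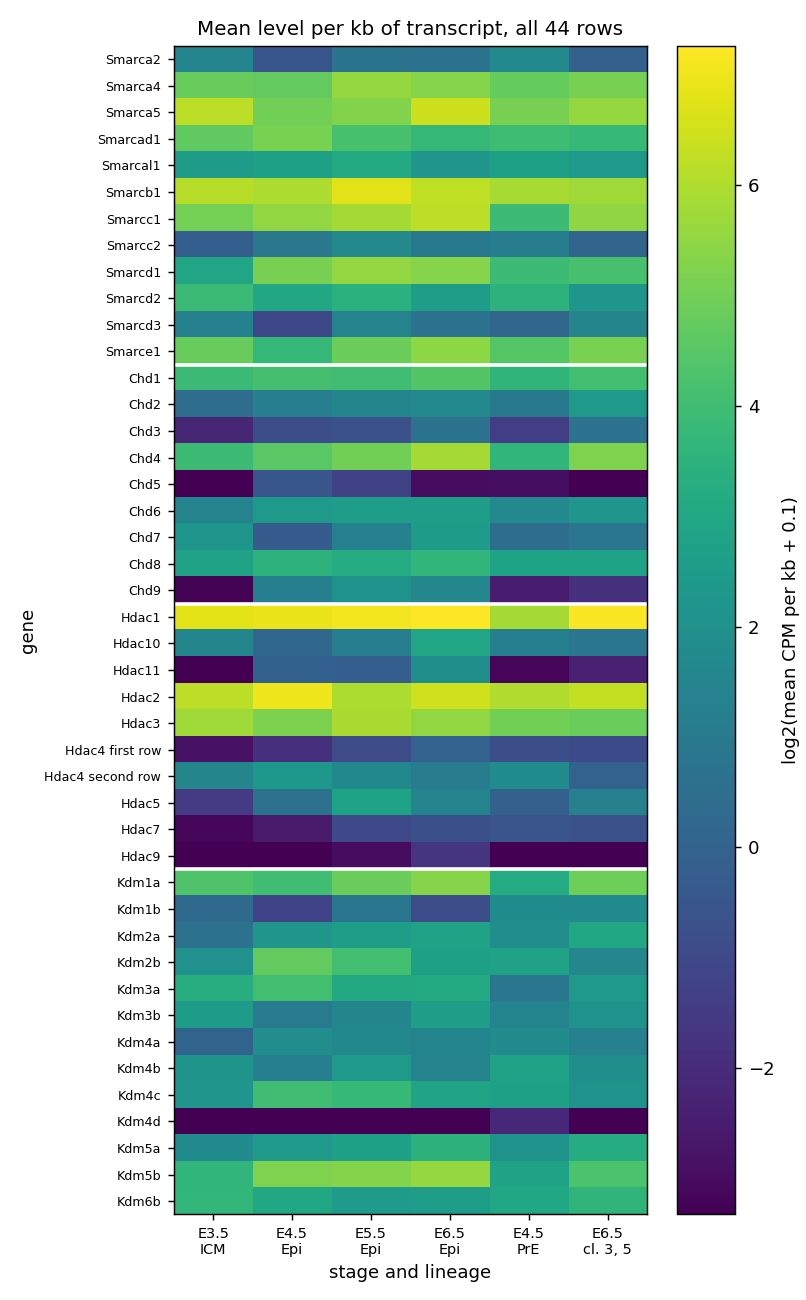
Mean level per kilobase of the principal transcript of the 44 rows (vertical axis, by family) in the 6 groups of sums (horizontal axis), as colour on the scale log2 of mean CPM per kilobase plus 0.1. Hdac1 is bright in all 6 groups (121.6 CPM per kilobase in the E4.5 epiblast), and Chd9 is dark in the E3.5 ICM and the PrE (0.0738 CPM per kilobase) but not in the E4.5 epiblast (2.25).

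Over the 4 stages of the line from ICM to epiblast, 22 of the 42 members tested differed between any stages (edgeR's quasi-likelihood test of the stage terms together, Benjamini-Hochberg adjusted p at most 0.05). This is 52.4% of those tested, beside 50.7% of all 13283 genes tested. The members that differed therefore took a share near that of the table as a whole.

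The comparison of the E3.5 ICM with the E4.5 epiblast asks how the levels shift as naive pluripotent cells part from the endoderm. Of 42 members tested 11 differed, beside 22.9% of all genes. Of these 8 rose and 3 fell, beside 14.5% and 8.39% of all genes. Their median log2 fold change was 0.62, and that of all genes was 0.00. The rises were spread over the families (1 Smarc, 2 Chd, 2 Hdac and 3 Kdm), whereas the 3 that fell were the remodellers Chd7, Smarca5 and Smarce1.

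Chd9, a chromodomain remodeller of the subfamily that also holds Chd6, Chd7 and Chd8, was at 0 in 9 of 10 ICM sums and at 0.680 CPM in the other, from 11 counts. In the E4.5 epiblast it was at 6.05, 19.6, 20.9, 42.2 and 46.03 CPM. No epiblast sum overlapped the ICM sums, and the log2 difference was 7.65 (SE 0.82, adjusted p = 3.12e-09, edgeR's quasi-likelihood test). Counted by cell, Chd9 had a count in 2 of 99 ICM cells (2.02%, exact 95% interval 0.246 to 7.11%) and in 19 of 29 E4.5 epiblast cells (65.5%, 45.7 to 82.1%), at median totals of 553935 and 647469 counts. These intervals cover counting error only.

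Kdm2b, an H3K36 demethylase that recruits a variant Polycomb complex to CpG islands, ranged from 0 to 52.96 CPM in the ICM (median 18.2). The E4.5 epiblast sums were at 91.5, 107.8, 128.7, 156.3 and 187.3 CPM. All 5 lay above all 10 ICM sums, by a log2 difference of 2.68 (SE 0.56, adjusted p = 0.000464, edgeR's quasi-likelihood test). Kdm5b and Smarcd1, an accessory subunit of SWI/SNF, were separated in the same way. Kdm5b moved from 29.4 to 151.7 CPM in the ICM (median 110.8) to 250, 265.1, 311, 374 and 408 CPM (log2 difference 1.56, SE 0.26, adjusted p = 1.35e-05, edgeR's quasi-likelihood test). Smarcd1 moved from 3.35 to 71.9 CPM (median 17.99) to 87.8, 102.3, 108.98, 119.1 and 147.1 CPM (log2 difference 2.20, SE 0.44, adjusted p = 0.000259, edgeR's quasi-likelihood test). Hdac2 and Kdm2a also rose, by 1.69 and 3.10-fold, with sums that overlapped.

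Chd5, a relative of the NuRD motors, had no count in any ICM sum. In the E4.5 epiblast it was at 0, 0.280, 2.22, 5.13 and 20.9 CPM, at least 118.6-fold higher on the mean when 3 counts over the ICM group are taken as its floor (adjusted p = 0.000656, edgeR's quasi-likelihood test). The mean rests mostly on embryo 2, at 20.9 CPM, without which the bound is 39.6-fold. Hdac11, the only class IV deacetylase, also had no count in the ICM, but it was above 0 in 1 of 5 E4.5 epiblast sums only, at 11.5 CPM. Its 31 counts came from 1 cell of 29. The adjusted p of 0.00775 (edgeR's quasi-likelihood test) rests on that embryo, without which the log2 difference is 0.00.

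Chd7, a remodeller known for its role in neural crest, fell from a median of 34.8 CPM in the ICM (2.31 to 150) to 0, 0.369, 6.71, 8.24 and 22.3 CPM in the E4.5 epiblast. The groups overlapped, and the log2 difference was -2.63 (SE 0.77, adjusted p = 0.0103, edgeR's quasi-likelihood test). Smarca5 fell from a median of 446 CPM (123.6 to 875) to 139.2, 151.3, 173.6, 194.4 and 319 CPM, a log2 difference of -1.21 (SE 0.30, adjusted p = 0.00306, edgeR's quasi-likelihood test). Smarce1, the HMG-box subunit of SWI/SNF, was at 6.69 to 177.02 CPM in the ICM (median 71.1) and at 24.4, 39.9, 41.1, 41.3 and 44.6 CPM in the E4.5 epiblast (log2 difference -1.08, adjusted p = 0.0427, edgeR's quasi-likelihood test). It missed the threshold in 10 of 14 alternatives. The motor Smarca4, by contrast, had a log2 difference of -0.09 (SE 0.27) and did not pass the test.

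Levels of other marker lists and the plate moved with this comparison. The summed level of the 20 endoderm genes was 459 to 1650 CPM in the ICM and, without overlap, 1898 to 5834 CPM in the E4.5 epiblast, and at E5.5 it was 651 to 980 CPM. The summed level of 9 trophoblast markers was 283 to 1046 CPM in the ICM and 158.05 to 390 CPM in the E4.5 epiblast, with Cdx2, Tfap2c, Hand1 and Krt7 at 0 there. The part of both lists in these results was not tested. With the plate name as a batch term, no member passed, and 32 of 13283 genes did, so stage and plate cannot be told apart for these calls. In that fit 10 of the 11 log2 differences kept their sign, among them those of Chd9 (10.9), Kdm2b (2.14), Kdm5b (1.49) and Smarcd1 (4.48). That of Smarca5 turned to 0.47. The ICM and E4.5 epiblast sums share no plate name, so this fit links them only through later stages. On the ICM side only the sum of the cells with no embryo number has a plate name that recurs there. The kept signs therefore do not rest on the other ICM sums, and the fit takes a recurring name as the same plate.

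Among 70 other subunits of the same complexes that were tested, 8 rose and 6 fell. The largest rises were those of the CoREST subunits Phf21a (log2 difference 3.496) and Rcor2 (2.01). Dpf3, of neural and muscle BAF, had no count in any E4.5 epiblast sum, at least 73.97-fold below the ICM (47.4-fold without the sum of the cells with no embryo number), and Baz1a, the partner of Smarca5 in the ACF complex, fell by 3.27 on the log2 scale without overlap of the sums.

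**Figure D2:**
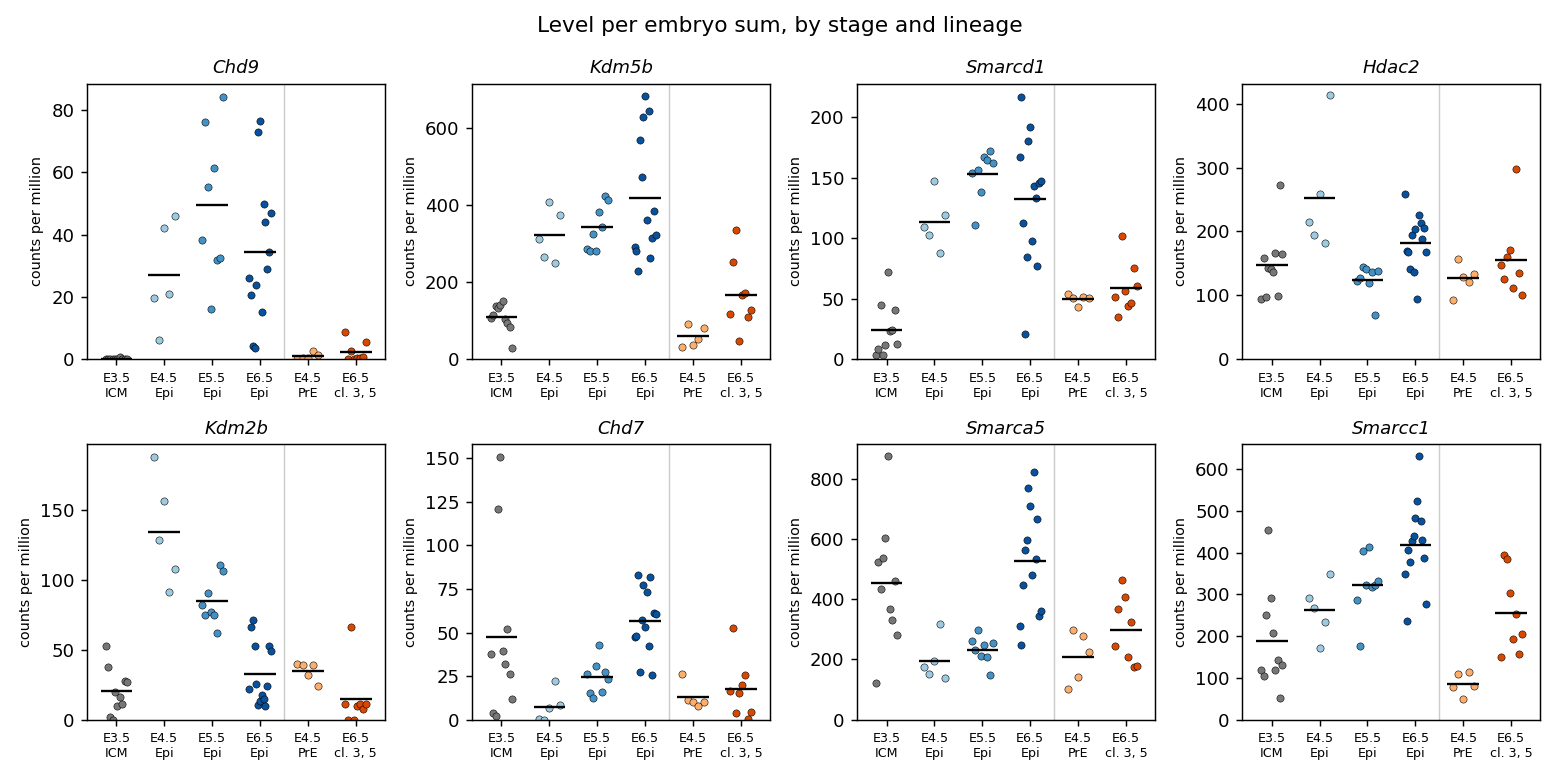
Level of 8 members in CPM (vertical axis, linear, from 0) in every embryo sum (points), by stage and lineage (horizontal axis), with group means as bars. In Chd9 the 10 ICM points lie at or near 0 and the 5 E4.5 epiblast points at 6.05 to 46.03 CPM, and in Kdm5b the 5 PrE points lie below all 5 E4.5 epiblast points.

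From E4.5 to E5.5, the step around implantation, 1 member fell and none rose, beside 3.03% and 3.81% of all genes. The member was Hdac2. Its epiblast sums were at 181.02, 194.7, 214.6, 259.3 and 414 CPM at E4.5 and at 68.7 to 143.5 CPM at E5.5 (median 131.1). No sum overlapped, and the log2 difference was -1.09 (SE 0.25, adjusted p = 0.00517, edgeR's quasi-likelihood test). Hdac1, its partner in NuRD and Sin3 complexes, stood at 205.03 to 277 CPM at E4.5 and at 219.4 to 325 CPM at E5.5, with a log2 difference of 0.08 (SE 0.28). The call of Hdac2 was lost without E4.5 embryo 5, which left no member called, and with the plate name as a batch term, where the log2 difference was -1.12.

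Smarca4, Smarcb1 and Smarce1, 3 subunits of SWI/SNF, were above all E4.5 epiblast sums in all 8 E5.5 sums, but did not pass the test across all genes (adjusted p = 0.0927, 0.352 and 0.0961, edgeR's quasi-likelihood test). The share of all genes separated in this way was not computed, and none of the 12 Smarc members passed at this step. Smarca4 was at 131.5, 140, 160, 172.3 and 227.1 CPM at E4.5 and at 240 to 339 CPM at E5.5 (median 320). At the same step 30 of 42 members (71.4%) had a log2 difference above 0, beside 56.4% of all genes. The median was 0.55 over the 12 Smarc members, 0.66 over the Hdac, 0.16 over the Chd and 0.13 over the Kdm members, and 0.14 over all genes. Of the companion subunits 3 of 70 fell and none rose. The largest drops were those of Mll3 (log2 difference -1.78), the Kmt2c methyltransferase under its older symbol, and Tbl1xr1 (-1.58), of the NCoR corepressor.

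From E5.5 to E6.5, as the epiblast enters gastrulation, 2 members rose and none fell, beside 4.49% and 5.55% of all genes. Smarca5 rose from a median of 239.1 CPM (147.6 to 298) to 532 CPM (246.5 to 822), and 12 of 13 E6.5 sums lay above all 8 E5.5 sums. The log2 difference was 1.23 (SE 0.25, adjusted p = 0.000625, edgeR's quasi-likelihood test). Chd4 rose from a median of 202.5 CPM (141.1 to 315) to 347 CPM (264.2 to 698), with 9 of 13 sums above all at E5.5 (log2 difference 0.86, SE 0.23, adjusted p = 0.00939, edgeR's quasi-likelihood test).

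Smarca5 thus passed the test in opposite directions at the first and the last step of the line from ICM to epiblast, with medians of 446, 173.6, 239.1 and 532 CPM. Within E6.5 its level differed between embryos with and without a plate name. It was 620 ± 129.2 CPM (SD, n = 9) in embryos from plates P1 to P3. In embryos with no plate name, whose sums are of cells from cluster 2, it was 316 ± 50.8 CPM (SD, n = 4). All cells titled E6.75 came from embryos with no plate name, so plate, cluster and titled age cannot be told apart here. Without the embryos that have no plate name, the rise of Smarca5 had a log2 difference of 1.49 (adjusted p = 3.6e-05, edgeR's quasi-likelihood test). With the plate name as a batch term neither member passed (22 of 13283 genes did), with log2 differences of 1.10 for Smarca5 and 1.17 for Chd4.

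Of the companions 2 rose and 2 fell at this step. Cecr2, a partner of the ISWI motors, rose by 1.16 on the log2 scale and Pbrm1, of the PBAF form of SWI/SNF, by 0.94. Mbd3, a subunit of NuRD, fell by 1.16 and Sin3b by 0.54.

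At E4.5 the PrE and the epiblast of the same 5 embryos were compared, 2 lineages that have just parted. Of 41 members tested, 8 were lower in the PrE and none was higher, beside 2.93% and 3.84% of all 12434 genes tested (6.76% in either direction). The median log2 difference of the members was -0.39, against 0.07 over all genes. The 8 were 2 of each family: Smarcc1 and Smarcd1, Chd4 and Chd9, Hdac1 and Hdac2, and Kdm3a and Kdm5b.

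Chd9 was at 0, 0.192, 0.431, 1.299 and 2.51 CPM in the PrE, and each sum lay below the 5 epiblast sums given above (log2 difference -4.85, SE 1.22, adjusted p = 0.0113, edgeR's quasi-likelihood test). By cell, 6 of 76 PrE cells had a count of Chd9 (7.89%, exact 95% interval 2.95 to 16.4%), at a median total of 758856 counts. The PrE cells were thus no shallower than the epiblast cells, of which 65.5% had one.

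Kdm3a, an H3K9 demethylase, was at 1.34, 5.14, 9.26, 11.8 and 13.5 CPM in the PrE and at 54.5, 60.5, 69.6, 109.3 and 111.7 CPM in the epiblast (log2 difference -3.35, SE 1.05, adjusted p = 0.0455, edgeR's quasi-likelihood test). Kdm5b was at 31.2, 36.7, 51.7, 81.7 and 90.9 CPM in the PrE, 5.61-fold below the epiblast (log2 difference -2.49, SE 0.40, adjusted p = 0.000112, edgeR's quasi-likelihood test). Neither gene overlapped between the lineages. Smarcc1 was at 50.9, 77.3, 81.1, 108.9 and 113.1 CPM in the PrE and at 172.002, 234.5, 266.8, 292 and 348 CPM in the epiblast, also with no overlap (log2 difference -1.64, SE 0.30, adjusted p = 0.000478, edgeR's quasi-likelihood test).

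Of the other 4, Hdac1 (90.3 to 140 CPM in the PrE, 205.03 to 277 in the epiblast), Hdac2 (93.1 to 157.2 and 181.02 to 414) and Smarcd1 (43.4 to 54.2 and 87.8 to 147.1) did not overlap between lineages, and Chd4 (45.7 to 102.9 and 97.4 to 262.1) did. Smarca4 and Smarca5 had log2 differences of -0.01 and 0.06, and did not pass. Smarca2 and Smarce1 were higher in all 5 PrE sums than in all 5 epiblast sums, but missed the threshold (adjusted p = 0.292 and 0.315, edgeR's quasi-likelihood test). How many of all genes were separated in this way was not computed. Smarca2 was at 6.91, 10.98, 19.001, 20.2 and 36.3 CPM in the PrE and at 0, 0.839, 4.63, 5.54 and 6.84 CPM in the epiblast.

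The number called depended on the embryos: it was 2 to 5 when 1 of the 5 was left out, and 2 without embryo 3. Kdm5b and Smarcc1 passed in all 13 alternatives, while Kdm3a and Smarcd1 missed the threshold in 8 of them, and Chd4, Hdac1 and Hdac2 in 6. With the embryo as a block 6 remained, without Chd4 (adjusted p = 0.054, edgeR's quasi-likelihood test) and Hdac1 (adjusted p = 0.0728, edgeR's quasi-likelihood test). Of the companions 5 of 70 were lower in the PrE and none was higher, with Sap30 of the Sin3 complex (log2 difference -3.87) and Rcor2 (-3.58) the furthest apart.

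At E6.5, clusters 3 and 5 were compared with the epiblast. Of 41 members 7 were lower in these clusters and 1 was higher, beside 8.42% and 7.38% of all genes. The members had a median log2 difference of -0.37, and all genes had -0.11.

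Chd9 was at 0 to 8.69 CPM (median 0.531) in clusters 3 and 5 and at 3.68 to 76.5 CPM (median 28.8) in the epiblast, and was lower in clusters 3 and 5 in all 8 embryos that gave both sums. The log2 difference was -3.88 (SE 0.89, adjusted p = 0.00329, edgeR's quasi-likelihood test), and it passed in all 20 alternatives. Kdm5b was at 46.6 to 334 CPM (median 146.6) against 229.01 to 682 CPM (median 360), again lower in 8 of 8 embryos (log2 difference -1.30, SE 0.29, adjusted p = 0.00227, edgeR's quasi-likelihood test). With cluster 5 alone Chd9 passed (log2 difference -4.60), and Kdm5b did not (-0.91, adjusted p = 0.0633, edgeR's quasi-likelihood test).

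Smarcd1 was at 34.9 to 101.4 CPM (median 53.9) against 20.8 to 217.1 CPM (median 143.1), with overlap (log2 difference -1.12, SE 0.28, adjusted p = 0.00597, edgeR's quasi-likelihood test). Hdac11 was above 0 in 1 of 8 sums of clusters 3 and 5, at 2.10 CPM, and in 8 of 13 epiblast sums, at up to 60.03 CPM (adjusted p = 0.0445, edgeR's quasi-likelihood test). Its epiblast level was 26.7 ± 23.1 CPM (SD, n = 4) in embryos with no plate name, which include those titled E6.75, and 2.61 ± 4.58 CPM (SD, n = 9) in the others. Without the embryos that have no plate name Hdac11 did not pass (adjusted p = 0.474, edgeR's quasi-likelihood test). Chd8, Smarca5 and Smarcc1 were lower by 1.76, 1.74 and 1.60-fold, and missed the threshold in 13, 5 and 7 of 20 alternatives.

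Kdm6b, an H3K27 demethylase, was the member that was higher. It was at 25.8 to 117.03 CPM (median 88.3) in clusters 3 and 5 and at 23.4 to 53.96 CPM (median 39.9) in the epiblast, and was higher in 6 of 8 embryos (log2 difference 1.05, SE 0.29, adjusted p = 0.0132, edgeR's quasi-likelihood test). With the embryo as a block it missed the threshold (adjusted p = 0.131, edgeR's quasi-likelihood test), as did Chd8 (adjusted p = 0.104, edgeR's quasi-likelihood test).

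The clusters did not contribute alike. With cluster 3 alone 7 members passed, 4 of them among the 8 above, and with cluster 5 alone only Chd9 and Kdm6b passed. Without the embryos that have no plate name 3 members passed, namely Chd9, Kdm5b and Kdm6b. The share of all genes called in these settings is not given here. The streak markers summed to 289 to 2658 CPM in clusters 3 and 5 and to 70.5 to 713 CPM in the epiblast, and their part in these results was not tested. Mesp1 and Mesp2 of that list were at 0 in every sum of clusters 3 and 5, and Lhx1 of that list was among the genes that led cluster 5. The streak score, centred on the mean of the E6.5 clusters, was -0.76 in cluster 3 and -0.06 in cluster 5. Of the companions 4 were higher and 5 lower. Baz1a (log2 difference 2.16) and Rcor1 (1.63) were the furthest above, and Rcor2 (-2.70) and Arid2, of PBAF (-1.63), the furthest below.

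**Figure D3:**
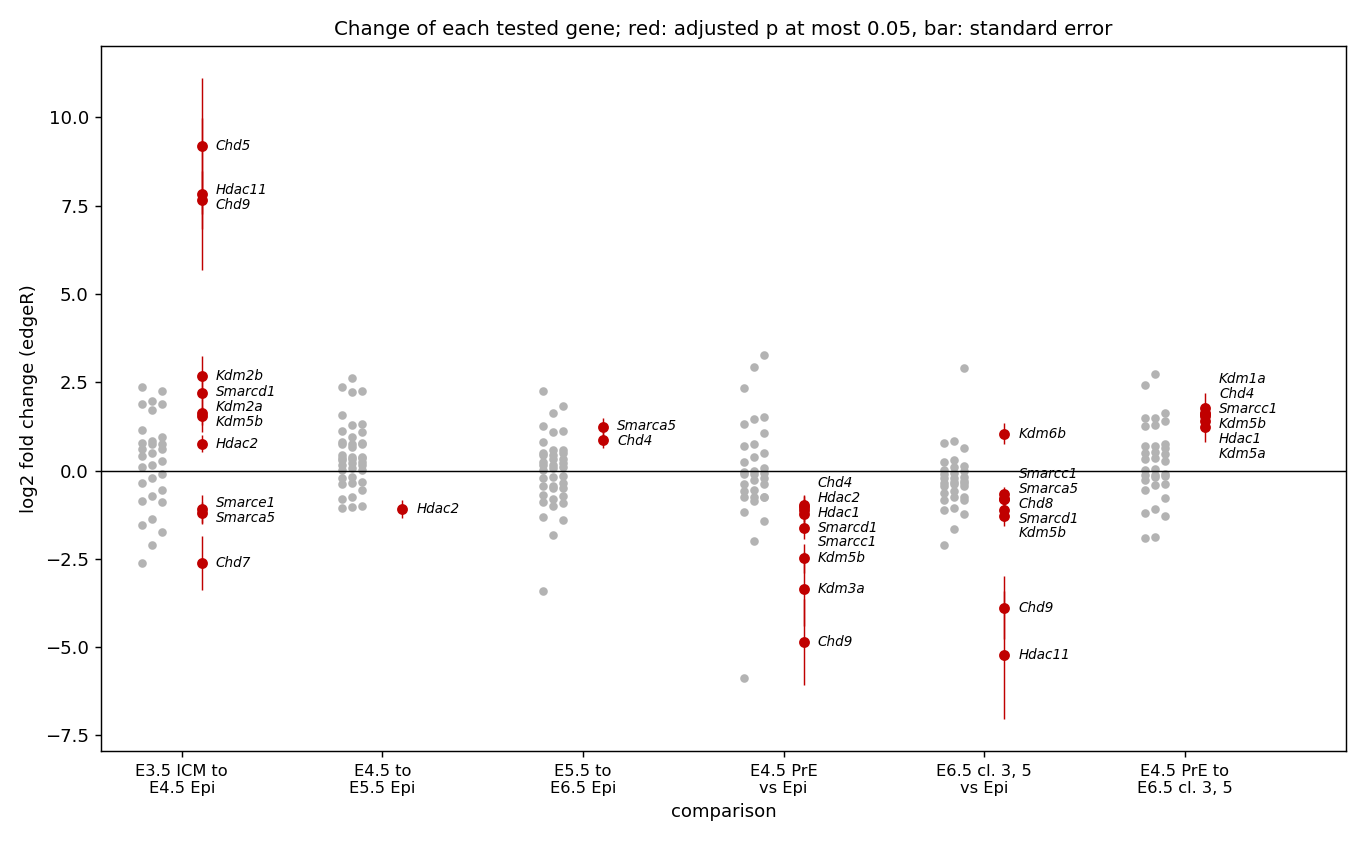
Log2 fold change (vertical axis) of every tested member in 6 comparisons (horizontal axis), with members past the threshold in red, named, and with a standard error bar. All red points lie below 0 in the E4.5 lineage comparison (8 members) and above 0 from the PrE to E6.5 clusters 3 and 5 (6 members).

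Between the E4.5 PrE and E6.5 clusters 3 and 5, 6 members rose and none fell, beside 5.72% and 5.61% of all genes. Kdm1a, the H3K4 demethylase of the CoREST complex, rose from 14.8, 20.3, 22.1, 36.96 and 41.8 CPM to a median of 75.5 CPM (26.4 to 180.96), with a log2 difference of 1.76 (SE 0.44, adjusted p = 0.00688, edgeR's quasi-likelihood test). Chd4 rose from 45.7, 79.5, 83.1, 98.7 and 102.9 CPM to a median of 231.2 CPM (168.9 to 386), without overlap (log2 difference 1.64, SE 0.27, adjusted p = 0.000107, edgeR's quasi-likelihood test). Smarcc1 rose without overlap as well, from the PrE levels given above to a median of 229.02 CPM (150 to 393; log2 difference 1.60, SE 0.28, adjusted p = 0.00017, edgeR's quasi-likelihood test). Kdm5b rose to a median of 146.6 CPM (46.6 to 334), with 7 of 8 sums above all PrE sums (log2 difference 1.54, SE 0.37, adjusted p = 0.005, edgeR's quasi-likelihood test). Hdac1 and Kdm5a rose by 2.63 and 2.35-fold, and Kdm5a missed the threshold in 8 of 16 alternatives.

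Chd4 and Smarcc1 passed in all 16 alternatives. With cluster 3 alone, a setting chosen after seeing the data like the use of cluster 5 alone, they were the 2 members that did. The 2 stages come from sums on different plates in part, and stage and plate cannot be told apart. Of the companions 4 rose and 1 fell. Dpf3 had no count in the PrE and was at least 128.7-fold higher on the mean at E6.5, Pbrm1 rose by 1.33 on the log2 scale, and Paxip1, of the Mll3 and Mll2 complexes, fell by 1.68.

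Whether the lineage difference itself changed between E4.5 and E6.5 was tested as well. No member passed edgeR's quasi-likelihood test, beside 1.99% of all genes. Of the 41 members 11 (26.8%) had an unadjusted p under 0.05, beside 15.0% of all genes, and DESeq2 called none. Hdac1, which was lower in the PrE at E4.5 and had a log2 difference of -0.01 (SE 0.22) at E6.5, had a change in the lineage difference of 1.11 (SE 0.39, adjusted p = 0.127, edgeR's quasi-likelihood test). Of the companions Ash2l, a core subunit of the Mll complexes, passed (2.19, SE 0.42, adjusted p = 0.00233, edgeR's quasi-likelihood test). It was at 132.4 to 190.96 CPM in the PrE against 209.02 to 302 CPM in the E4.5 epiblast. At E6.5 it was at 105.9 to 398 CPM in clusters 3 and 5 and at 33.7 to 142.5 CPM in the epiblast.

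Paralog switches were tested through the ratio of 2 paralogs within a sum, from which gene length cancels when 2 groups are compared. Of 19 pairs listed 18 were tested, in 90 tests, and 6 tests passed (exact two-sided permutation test over embryos, Benjamini-Hochberg adjusted over the 90). Ratios are log2 ratios of counts, with 0.5 counts added to each, so library size cancels only where both paralogs have counts.

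The accessory SWI/SNF subunits Smarcd1 and Smarcd2 changed their order on the mean. Their log2 ratio was -1.24 ± 1.47 (SD, n = 10) in the ICM and 3.05 ± 1.91 (SD, n = 5) in the E4.5 epiblast, a difference of 4.29 (exact permutation p = 0.000666, adjusted p = 0.0233), with ratios that overlapped (-3.04 to 1.28 and 0.80 to 5.74). Per kilobase of the principal transcript, Smarcd2 was 2.84-fold above Smarcd1 in the ICM, and Smarcd1 was 6.89-fold above Smarcd2 in the E4.5 epiblast, and the order turned with merged exon lengths too. Smarcd2 was at 18.1 to 53.3 CPM in the ICM (median 44.8) and at 1.65, 7.93, 17.9, 31.03 and 50.4 CPM in the epiblast, with a difference that did not pass on its own (adjusted p = 0.412, edgeR's quasi-likelihood test), while Smarcd1 passed. The ratio of Smarcd1 to Smarcd3 went from 3.44 to 8.75 at the same step (exact permutation p = 0.00133, adjusted p = 0.0300), with Smarcd3 at 0 in 4 of 5 epiblast sums, so that the size of this ratio depends on depth and on the 0.5 counts added. With sums of at least 5 cells neither ratio passed (adjusted p = 0.0595 and 0.123, exact permutation test).

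Hdac1 and Hdac2 had near equal counts in the E4.5 epiblast, with a log2 ratio of 0.03 ± 0.44 (SD, n = 5), and more counts of Hdac1 at E5.5, with 1.17 ± 0.37 (SD, n = 8). The 2 groups did not overlap (exact permutation p = 0.000777, adjusted p = 0.0233), and the test passed in all 7 alternatives. Kdm1a and Kdm1b, both H3K4 demethylases, went from 3.62 ± 0.98 (SD, n = 8) at E5.5 to 7.67 ± 2.85 (SD, n = 13) at E6.5 (exact permutation p = 0.00196, adjusted p = 0.0353). Kdm1b was at 1.53 to 15.3 CPM in the E5.5 sums and at 0 in 6 of the 13 E6.5 sums, so the size of that ratio depends on the 0.5 counts added, and with sums of at least 5 cells it missed the threshold (adjusted p = 0.0595, exact permutation test).

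Across lineages, Chd6 and Chd9 had a log2 ratio of 1.18 ± 1.28 (SD, n = 13) in the E6.5 epiblast and 5.76 ± 2.50 (SD, n = 8) in clusters 3 and 5 (exact permutation p = 7.37e-05, adjusted p = 0.00663). At E4.5 the ratio was 1.18 in the epiblast and 5.73 in the PrE, with no overlap. Chd9 had no count in its lowest sum of clusters 3 and 5 and of the PrE. The size of these ratios therefore depends on depth and on the 0.5 counts added. The ratio of Kdm5a to Kdm5b was -1.77 ± 0.49 (SD, n = 13) in the E6.5 epiblast and -0.68 ± 1.01 (SD, n = 8) in clusters 3 and 5 (exact permutation p = 0.00295, adjusted p = 0.0442). Kdm5a itself was at 69.6 to 256.1 CPM in the E6.5 epiblast and at 46.7 to 205.4 CPM in clusters 3 and 5, a log2 difference of -0.21 (SE 0.31). With pairs of sums permuted within embryos, neither of these 2 lineage ratios passed (adjusted p = 0.0962 and 0.181, exact paired permutation test). The smallest p that 8 pairs allow is 0.00781, which Chd6/Chd9 reached, so over 90 tests a ratio could pass only beside many others with a p as small.

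At E4.5 no lineage ratio passed. With 5 against 5 embryos the smallest p is 0.00794, and Chd6/Chd9, Kdm3a/Kdm3b and Kdm5a/Kdm5b reached it with groups that did not overlap (adjusted p = 0.0589 in each, exact permutation test). Kdm3a, which was lower in the PrE, was set against Kdm3b at 12.9 to 20.9 CPM in the PrE and 0.550 to 25.2 CPM in the epiblast, and their log2 ratio went from 3.42 to -1.35.

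**Figure D4:**
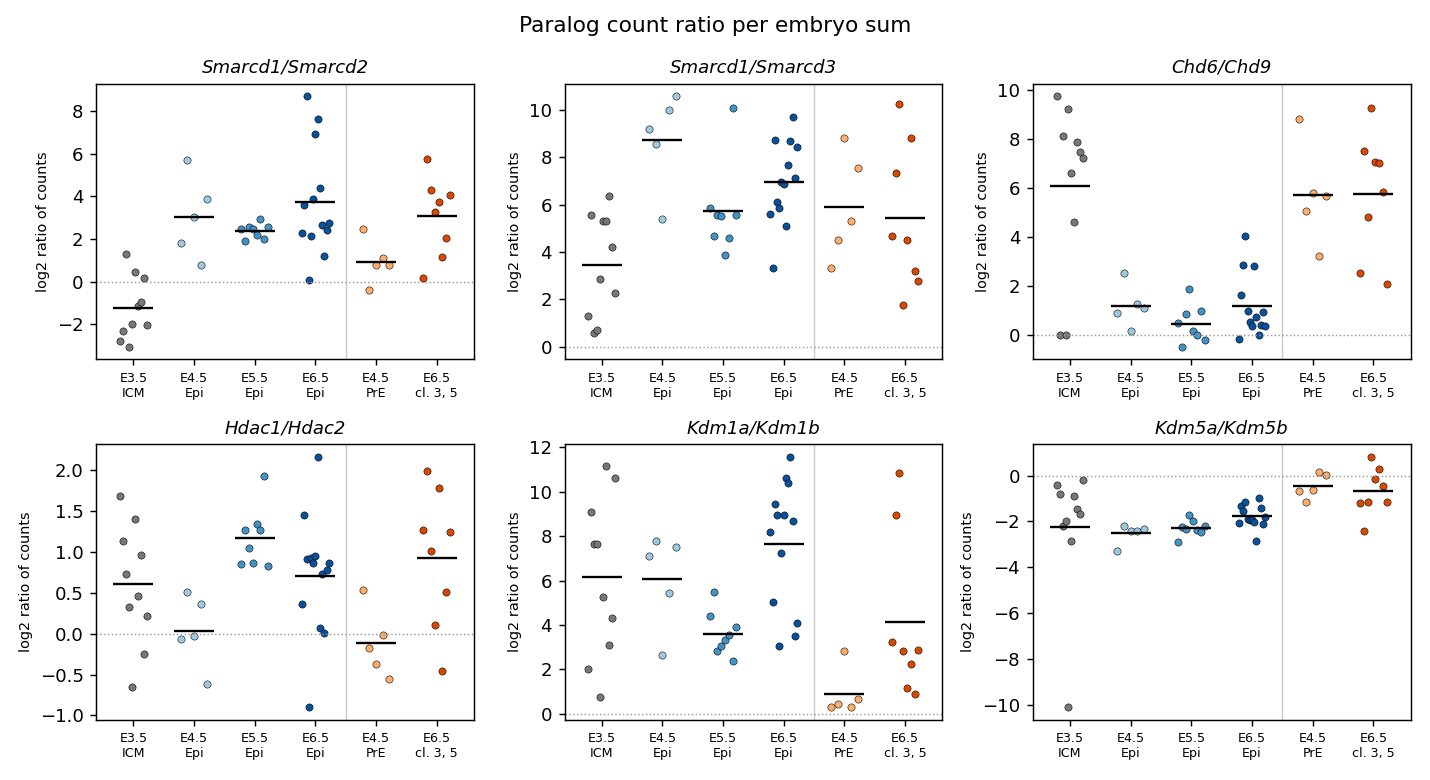
Log2 ratio of the counts of 2 paralogs in each embryo sum (points), by group, for the pairs whose ratio passed, with group means as bars. The ratio of Smarcd1 to Smarcd2 lies at a mean of -1.24 in the ICM and 3.05 in the E4.5 epiblast.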

How the data were processed

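RNA of single picked cells was sequenced with a kit that does not mark strand, so reads of overlapping genes cannot be told apart. The authors trimmed reads (Trim Galore 0.4.3), aligned them with HISAT2 2.0.5 to GRCm38 (versions from the submitters' processing notes, and the study's methods name other versions of both tools) and deposited the raw counts that SeqMonk gave for each gene in each cell. Rows of the autosomes were analysed here. No column was left unmapped. Stage, embryo and plate came from titles. Cells were clustered with 115 rows, members included, held out (8 clusters over all cells, 5 at E6.5), and clusters were named from marker lists. Counts were summed per embryo and class, and CPM uses library sizes scaled by edgeR's TMM factors. Genes of low counts were dropped by filterByExpr, and the sums were tested by the quasi-likelihood method of edgeR 4.0.16 in R 4.3.3, with p-values adjusted over all genes (Benjamini-Hochberg). DESeq2 1.42.0 was an alternative. The code was tested on simulated data. Lineages of 1 embryo carry the same number because they come from the same embryo. The deviations of such pairs correlated by 0.02 to 0.11 at E4.5 and 0.03 to 0.18 at E6.5. Per embryo statistics were given for called members, at most the 4 largest rises and drops in a comparison, and for pairs with a called ratio. Of companions, the 2 largest called rises and drops were named. The members and lists were chosen with earlier results of these data known. Lengths and coordinates came from the GRCm38 annotation and RefSeq. The 2 Hdac4 rows were kept apart, and that gene was left out of the ratios.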

Additional observations from a re-analysis of the deposited data

Results flagged for a closer look

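In 7 of the 49 groups of 4 to 10 sums examined, 1 sum lay far from the others of its group by Dixon's criterion. Its chance rate of about 1 group in 20 holds for normally distributed values only. Where all other sums are at 0, as for Hdac11 and for Chd9 below, any sum above 0 meets the criterion. In the E4.5 epiblast, Chd5 was at 20.9 CPM in embryo 2 against 5.13 CPM in the next, Hdac11 was at 11.5 CPM in embryo 1 against 0 in the others, and Smarce1 was at 24.4 CPM in embryo 5 against 39.9 CPM in the next. In the ICM, Chd9 was at 0.680 CPM in 1 sum against 0 in the others, and Hdac2 was at 273 CPM in 1 sum against 166.3 CPM in the next. In the E5.5 epiblast Hdac2 was at 68.7 CPM in 1 sum against 118.8 CPM in the next, and in E6.5 clusters 3 and 5 Hdac11 was at 2.10 CPM in 1 sum against 0 in the others.

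Ash2l was the companion whose lineage difference changed between E4.5 and E6.5, by 2.19 on the log2 scale (SE 0.42, adjusted p = 0.00233, edgeR's quasi-likelihood test).

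A primitive streak cluster of 23 cells came from 1 E6.5 embryo and entered no comparison. In its sum 4 members lay above all 13 E6.5 epiblast sums. The share of all genes that did so was not computed, so this count is not a result about the members. Chd7 was at 122.9 CPM, against at most 82.98 CPM in the epiblast and 48.1 CPM in the epiblast of the same embryo. Smarcd2 was at 71.8 CPM (34.6 and 18.1 CPM), Kdm4a at 30.9 CPM (25.6 and 15.6 CPM) and Hdac3 at 185.1 CPM (180.9 and 43.3 CPM). With 1 sum there is no replicate check.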

How the results depend on the processing

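Of the values of single members and ratios under the alternatives, 456 kept their direction and their side of the threshold, 1 reversed and the others lost the threshold. Among the latter 1, Hdac11 from ICM to E4.5 epiblast without E4.5 embryo 1, had a value of 0 and no direction. The one that reversed was Smarca5 from ICM to E4.5 epiblast, 0.47 on the log2 scale with the plate name as a batch term (adjusted p = 0.967, edgeR's quasi-likelihood test). That term left 0 members at each step of the epiblast line. The E4.5 to E5.5 count of 1 became 2 with DESeq2, 3 with single cells only and 4 with sums of at least 5 cells. The E5.5 to E6.5 count of 2 became 1 with the study's fold limit, 4 with DESeq2, 5 with sums of at least 5 cells and 4 without the embryos that have no plate name. At E4.5 the lineage count of 8 became 3 with the fold limit, 4 with no filter and 4 with sums of at least 1 cell. At E6.5 the lineage count of 8 became 5 with the fold limit, 4 with sums of at least 5 cells, 5 with Ward clustering, 3 without the embryos that have no plate name, 4 without cells titled E6.75 and 2 with cluster 5 alone. The PrE to E6.5 count of 6 became 2 with cluster 3 alone, and the count of changed lineage differences became 1, Kdm5b, with cluster 5 alone. The settings of 1 cluster alone were chosen after seeing the data. The cause of these shifts was not tested. Shares of all genes called are not given beside these counts or those below. A shift of the members therefore cannot be told from one of all genes.

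Leaving out 1 embryo gave 8 to 10 members from ICM to E4.5 epiblast, 0 to 2 at the next step, 2 to 5 for the lineages at E4.5 and 5 to 8 at E6.5, 5 to 6 from PrE to E6.5 and 0 to 0 for the changed lineage differences. With the embryo as a block, so that the lineages of 1 embryo are paired, 6 members were called at E4.5, 6 at E6.5 and 0 for the changed differences, and 4 paralog ratios passed in place of 6 (the smallest p that 8 pairs allow is 0.00781). The E4.5 epiblast sums hold 4 to 7 cells each, which limits the precision for genes of low level.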

Other observations

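The lysine methyltransferases of the Kmt2 family, which write the H3K4 marks that Kdm1 and Kdm5 enzymes remove, were followed under their older symbols. Mll3 (Kmt2c) had a mean of 265.5 CPM in the ICM, 147.8 CPM in the E4.5 epiblast, 44.9 CPM at E5.5 and 24.5 CPM at E6.5. It differed between any stages (adjusted p = 6.18e-11, edgeR's quasi-likelihood test), beside 50.7% of all genes. In the same test Mll5, Mll1 and Wbp7 passed (adjusted p = 0.00148, 0.0413 and 0.0452), and Mll2 did not (0.357). No ratio of Kmt2a to Kmt2b or of Kmt2c to Kmt2d passed in any comparison. Stage and plate cannot be told apart for these levels. The primitive streak sum lay below all 13 E6.5 epiblast sums for Kdm5a (62.8 CPM, against 111.8 CPM in the epiblast of the same embryo), Chd4 (226.9 and 264.2 CPM), Smarca5 (217.9 and 246.5 CPM) and Smarcc1 (232.98 and 236.9 CPM). That embryo has no plate name, and its epiblast sum was the lowest of the 13 for the latter 3 genes. The share of all genes for which the streak sum lay below all 13 was not computed. Hdac11 was at 4.29 CPM in the streak sum, below all 4 epiblast sums of embryos with no plate name (7.97 to 60.03 CPM), of which that of the same embryo was the highest. By cell, it had a count in 13 of the 23 streak cells (56.5%, exact 95% interval 34.5 to 76.8%), in 25 of 84 epiblast cells of embryos with no plate name (29.8%, 20.3 to 40.7%) and in 5.94% of the epiblast cells of plates P1 to P3 (2.21 to 12.5%), at median totals of 632612, 496326 and 706247 counts, so the share of cells and the level did not have the same order. In E6.5 clusters 3 and 5 it had a count in 1 of 42 cells (2.38%), at a median total of 888472 counts.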
